A study of Mus musculus with 62 samples.

Results

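The genes described here were 10 genes of fast excitatory transmission in mouse brain: the 4 pore-forming subunits of the AMPA receptor (Gria1, Gria2, Gria3 and Gria4), 4 auxiliary subunits (Cacng2, Cacng3, Cacng8 and Cnih2) and 2 neuronal pentraxin genes (Nptx1 and Nptxr). They were taken by their symbols from the table of 56415 genes, in which all 10 were present. Poly(A) RNA was sequenced from 62 tissue samples of 16 male C57BL/6J mice aged 8 to 10 weeks, and the labelled groups differed in the injections only. Each mouse received ethanol at 2 g/kg or saline by intraperitoneal injection, as 1 injection (acute exposure) or 10 daily injections (chronic exposure), and tissue was taken 4 h after the last one. The regions were the cortex (CTX), the dorsal and the ventral part of the hippocampus (dHPC and vHPC) and the dorsal and the ventral striatum (DS and VS), which gave 20 groups of 3 or 4 mice. A replicate number names a mouse, so libraries of several regions with the same group and number came from the same animal, whereas a saline and an ethanol library that share a number did not.

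AMPA receptors are glutamate-gated cation channels built from 4 subunits, and they carry most of the fast excitatory current in the forebrain. The subunit GluA2, encoded by Gria2, makes the channel nearly impermeable to calcium because its RNA is edited by the deaminase ADAR2 at the Q/R site of the pore loop. Auxiliary subunits set where receptors go and how they gate: stargazin (Cacng2), its relatives TARP γ-3 (Cacng3) and TARP γ-8 (Cacng8), and cornichon-2 (Cnih2). TARP γ-8 and cornichon-2 are known as partners of hippocampal receptors. Neuronal pentraxin 1 is secreted and its receptor NPTXR is anchored in the membrane, and both gather AMPA receptors at synapses. In the striatum the main excitatory inputs come from pallial neurons of the cortex, hippocampus and amygdala and from the thalamus, while most local neurons are GABAergic.

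The Q/R site is shown here because edited GluA2 differs there from the other 3 subunits and because gene counts do not read it. Each window holds 39 bases of the GRCm39 reference in coding exon 11, read from the strand of the gene, with the glutamine codon of the Q/R site in capitals:
Gria1: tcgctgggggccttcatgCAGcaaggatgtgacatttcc
Gria2: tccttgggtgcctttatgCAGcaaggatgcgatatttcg
Gria3: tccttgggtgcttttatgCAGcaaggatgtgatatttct
Gria4: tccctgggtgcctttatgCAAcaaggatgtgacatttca
They lie at chr11:57133902-57133940 on the plus strand (Gria1), chr3:80614200-80614238 on the minus strand (Gria2), chrX:40699124-40699162 on the plus strand (Gria3) and chr9:4464119-4464157 on the minus strand (Gria4). All 4 genes encode glutamine there in the genome, Gria4 with the codon CAA and the other 3 with CAG. The Gria2 and Gria3 windows differed at 3 of 39 bases, and Gria1 differed from Gria2 and from Gria3 at 7 each. The arginine that most GluA2 protein carries is therefore not written in the genome, and a count of Gria2 reads includes edited and unedited RNA alike.

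As the deposited tables give them, the subunit genes are Gria1 (ENSMUSG00000020524, chr11:56902213-57221070, plus strand), Gria2 (ENSMUSG00000033981, chr3:80588757-80710142, minus strand), Gria3 (ENSMUSG00000001986, chrX:40489731-40765462, plus strand) and Gria4 (ENSMUSG00000025892, chr9:4417896-4796142, minus strand). The auxiliary subunit genes are Cacng2 (ENSMUSG00000019146, chr15:77875948-78004228, minus strand), Cacng3 (ENSMUSG00000066189, chr7:122269715-122368616, plus strand), Cacng8 (ENSMUSG00000053395, chr7:3439199-3464121, plus strand) and Cnih2 (ENSMUSG00000024873, chr19:5142896-5148549, minus strand). The pentraxin genes are Nptx1 (ENSMUSG00000025582, chr11:119429545-119438579, minus strand) and Nptxr (ENSMUSG00000022421, chr15:79670552-79688967, minus strand). Nptxr shares 890 exon bases with Npcd on the same strand, and reads there were counted for both genes.

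Total counts per library ran from 43173748 to 71164766 in CTX and dHPC and from 8149628 to 46564992 in vHPC, DS and VS. The first 2 regions were prepared with a non-directional kit and the other 3 with a directional one on another instrument, so a difference between a region of one set and a region of the other cannot be told apart from the library preparation. DS chronic saline replicate 2 had no counts on 6 chromosomes, among them those of Gria3, Gria4, Cacng3 and Cacng8, and it was left out of the tests. With it, edgeR called 0 of the 10 genes and 0 of 20078 genes in DS chronic, and 0 of 21120 in the DS interaction of paradigm and treatment. Markers of striatal projection neurons stood at 53.5 to 118% of their saline DS mean in the remaining saline DS and VS libraries and at 1.95 to 47.8% in saline libraries of the other regions. Markers of dentate granule neurons ranged from 26.4 to 127% of their saline dHPC mean among the saline vHPC libraries. Values below are CPM, that is counts scaled to library size with TMM factors, each mean with its SD over mice. All 10 genes passed the filter on low counts in every comparison. In bulk tissue, fewer cells of a type and less RNA per cell cannot be told apart.

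Gria1 had the widest range of the subunit genes among saline mice. Its level was 1023 ± 192 CPM in vHPC (n = 6), 901 ± 87.8 in dHPC (n = 6), 498 ± 17.8 in VS (n = 6), 456 ± 27.1 in DS (n = 6) and 279 ± 8.10 in CTX (n = 6). Every dHPC library lay above every VS library, and every DS library above every CTX library, whereas vHPC overlapped dHPC and VS overlapped DS. Gria2 ran in a narrow band, from 731 ± 95.4 CPM in vHPC to 582 ± 27.0 in CTX, a ratio of 1.26, and among neighbours in its order only dHPC and CTX did not overlap. Gria3 was highest in CTX at 258 ± 16.4 CPM and lay between 187 and 199 in the other 4 regions, with all neighbours overlapping. Gria4 was also highest in CTX, at 102 ± 5.70 CPM, above every library of the next region, VS (72.6 ± 9.91), and it was lowest in dHPC at 46.8 ± 2.29.

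To set levels of different genes side by side, CPM were divided by the length of all annotated exon bases of a gene, which is 6.043 kb for Gria1 and 15.548 kb for Gria2. On this scale Gria1 stood at 169 CPM per kb in vHPC and 46.1 in CTX, and Gria2 at 47.0 and 37.4. Gria1 made up 68.8 ± 3.05% of the summed per-kilobase level of the 4 subunits in vHPC and 68.0 ± 1.53% in dHPC, but 36.7 ± 1.26% in CTX. The striatum lay between, at 50.2 ± 2.81% in DS (n = 5) and 52.1 ± 2.62% in VS. Gria3 and Gria4 took larger shares in CTX, at 20.7 ± 1.02% and 12.9 ± 0.623%, against 8.67 ± 0.492% and 3.41 ± 0.317% in dHPC. These shares depend on the length used. With the longest protein-coding isoform as the length (10.371 kb for Gria2), an alternative chosen after seeing the data, Gria1 made up 60.6% in vHPC, 59.6% in dHPC, 43.3% in VS, 41.5% in DS and 28.8% in CTX, where Gria2 was at 32.1%. With no division by length, also chosen after seeing the data, the Gria1 shares were 50.8, 49.7, 34.2, 32.4 and 22.9% in the same order, and Gria2 had the higher share in VS (47.2%), DS (49.4%) and CTX (47.7%). The order of Gria1 and Gria2 in CTX, DS and VS therefore rests on the choice of length, whereas the Gria1 share was highest in the 2 hippocampal regions and lowest in CTX with each of the 3 lengths.

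Among the auxiliary subunits, Cnih2 and Cacng8 had their highest levels in the hippocampus. Cnih2 measured 311 ± 62.8 CPM in vHPC and 259 ± 25.05 in dHPC, 151 ± 14.5 in VS, 147 ± 18.4 in DS and 90.7 ± 8.58 in CTX. Cacng8 measured 165 ± 36.5 CPM in vHPC and 103 ± 9.33 in dHPC, and between 49.8 and 56.6 in VS, CTX and DS. For both genes every dHPC library lay above every VS library. Cacng2 and Cacng3 had their highest levels in CTX, at 134 ± 10.8 and 123 ± 16.2 CPM. Cacng2 was lowest in dHPC (64.1 ± 5.89) and Cacng3 in vHPC (44.1 ± 13.8), and Cacng3 was the only auxiliary gene with more RNA in either striatal region than in either hippocampal one by mean level. Per kilobase of all annotated exon bases, Cnih2 stood between 66.2 CPM per kb in CTX and 227 in vHPC, the highest of the 4 in every region on that scale.

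The pentraxin genes spanned the largest range of the 10. Nptx1 measured 900 ± 134 CPM in vHPC, 530 ± 67.0 in dHPC, 360 ± 40.9 in CTX, 143 ± 27.8 in DS and 129 ± 54.7 in VS, 6.96 times lower in VS than in vHPC. Nptxr measured 1402 ± 341 CPM in vHPC, 964 ± 123 in CTX, 600 ± 111 in dHPC, 233 ± 91.7 in VS and 230.5 ± 32.3 in DS. For Nptx1 only the 2 striatal regions overlapped with each other in this order, and for Nptxr CTX, dHPC and VS were separated from each other without overlap. The spread among saline VS libraries was wide, with Nptx1 between 46.2 and 190 CPM and Nptxr between 153 and 363.

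**Figure D1:**
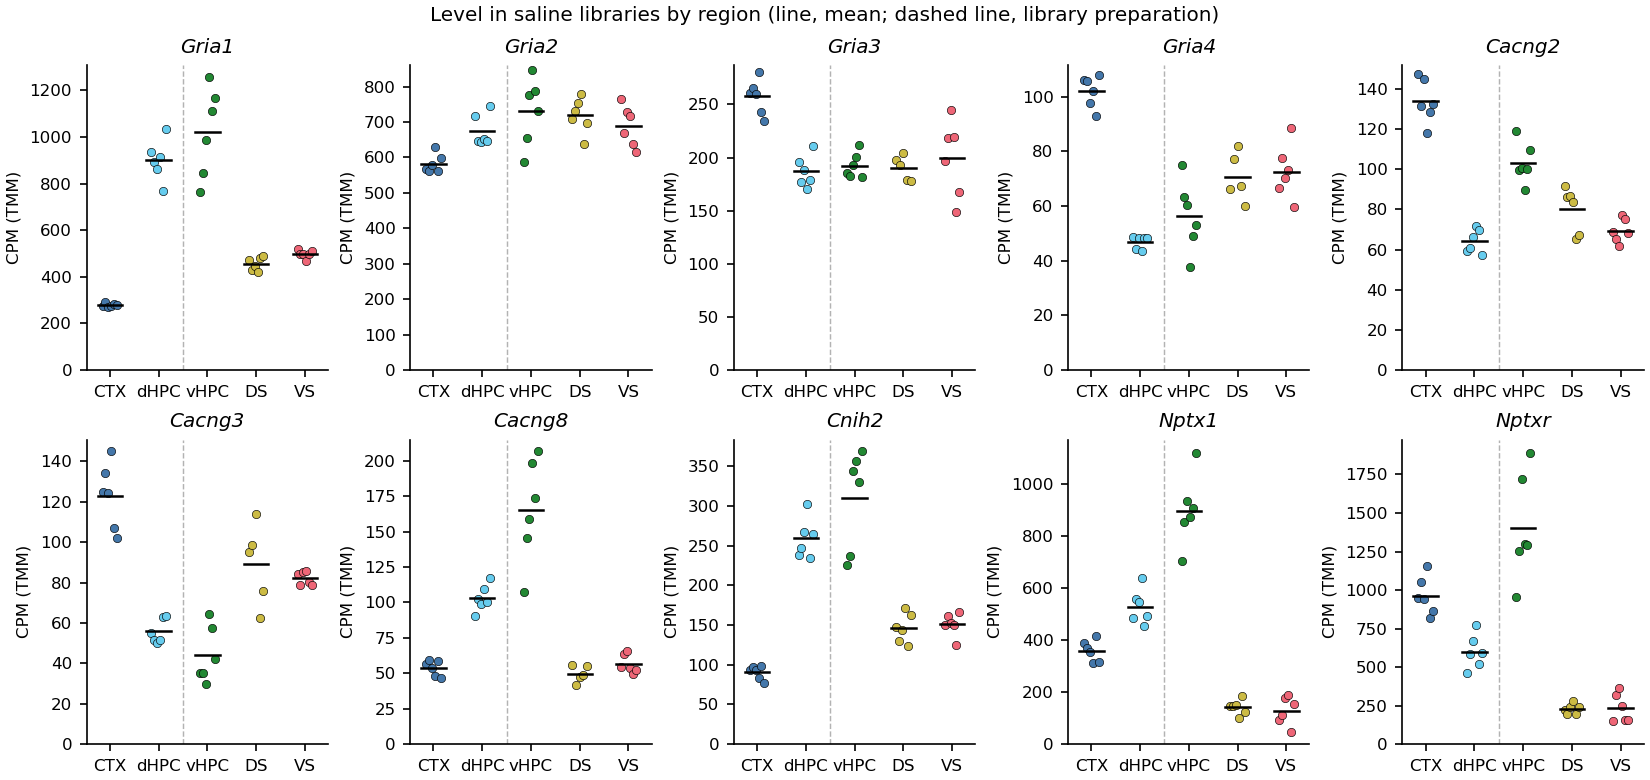
Levels of the 10 genes in saline libraries, 1 panel per gene, with CPM on the vertical axis and the 5 regions on the horizontal axis. Points are libraries, short lines are means, and the dashed line separates the regions of the 2 library preparations. Gria1, Cacng8 and Cnih2 sat highest in the hippocampus, Gria4 and Cacng3 in CTX, and Nptx1 and Nptxr lowest in DS and VS.

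Regions prepared together were compared in saline mice with the mouse as a block. The test was edgeR's quasi-likelihood test with Benjamini-Hochberg adjustment over all genes and a threshold of 0.1. Not every mouse gave both regions, and under this block a mouse with a single region adds nothing to the difference. CTX and dHPC differed in all 10 genes, where 44.5% of the 27916 genes tested were called. Relative to dHPC, CTX had less Gria1 (log2 difference -1.69 ± 0.08, SE, adjusted p = 1.71e-06) and less Cnih2 (-1.44 ± 0.09), Cacng8 (-0.91 ± 0.10), Nptx1 (-0.43 ± 0.09) and Gria2 (-0.28 ± 0.05). It had more Gria4 (1.11 ± 0.06), Cacng2 (1.11 ± 0.07), Cacng3 (0.99 ± 0.11), Nptxr (0.76 ± 0.08) and Gria3 (0.38 ± 0.07). The 2 pentraxin genes thus differed in opposite directions between these regions.

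Against DS, vHPC differed in 7 of the 10 genes, where 34.5% of 21224 genes were called, and against VS in the same 7, where 33.9% of 21583 were called; both comparisons use the same vHPC libraries. Nptxr was higher in vHPC than in DS by 2.65 ± 0.13 on the log2 scale and Nptx1 by 2.57 ± 0.13. Cacng8 (1.64 ± 0.13), Cnih2 (1.06 ± 0.12), Gria1 (1.05 ± 0.10) and Cacng2 (0.41 ± 0.09) were also higher, and Cacng3 was lower (-1.17 ± 0.22). Gria2, Gria3 and Gria4 did not pass the test in either comparison, with Gria4 at -0.25 ± 0.10 against DS (adjusted p = 0.103). Measured in ethanol libraries instead of saline ones, the vHPC excess over DS was larger for both pentraxin genes, at 3.91 ± 0.17 for Nptx1 and 3.36 ± 0.12 for Nptxr, the Cacng2 difference was 0.01 ± 0.09 and not called, and Gria4 was called at -0.58 ± 0.09. Against VS in ethanol libraries all 10 genes were called, with Gria2 at 0.37 ± 0.11, Gria3 at 0.36 ± 0.10 and Gria4 at -0.57 ± 0.11.

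DS and VS did not differ in any of the 10 genes in saline mice by edgeR, with 9.59% of 21286 genes called and 0 of the 10 at an unadjusted p under 0.05. DESeq2 called 0 members here (7.44% of genes), 7 in vHPC against VS (27.7%), 7 in vHPC against DS (30%) and 10 in CTX against dHPC (36.7%). In ethanol libraries 6 of the 10 were called, where 30% of genes were: Gria2 (0.35 ± 0.08), Gria3 (0.33 ± 0.07), Cacng2 (0.44 ± 0.09) and Cacng3 (0.27 ± 0.09) were higher in DS, and Cacng8 (-0.37 ± 0.09) and Nptxr (-0.39 ± 0.08) were lower. Both shares of genes, 9.59% and 30%, come from the same test on different animals, and whether the 2 sets of differences themselves differ was not tested.

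To determine whether ethanol altered these genes, ethanol and saline libraries of each region and paradigm were compared. In 2 of the 10 comparisons edgeR called members: 3 in CTX after acute exposure, where 1.99% of genes were called, and 3 in DS after acute exposure, where 5.15% were. In the other 8 comparisons edgeR called none of the 10, and it called 0% of all genes in CTX chronic, dHPC chronic, vHPC acute, DS chronic and VS chronic, 0.042% in dHPC acute, 0.0555% in vHPC chronic and 0.0399% in VS acute. At an unadjusted p under 0.05 those 8 held 1 member in CTX chronic (10.4% of all genes), 2 in dHPC acute (7.88%), 3 in dHPC chronic (8.23%), 5 in vHPC acute (11.9%), 5 in vHPC chronic (9.51%), 4 in DS chronic (7.53%), 3 in VS acute (7.32%) and 3 in VS chronic (9.95%). Saline and ethanol libraries did not overlap for 5 of the 10 genes in CTX acute, where 17.4% of all genes tested did not overlap, and for 5 in DS acute (22.4%). The counts were 4 each in vHPC chronic (14.7%) and DS chronic (17.3%), 3 in vHPC acute (17.8%), 2 each in dHPC acute (8.14%), dHPC chronic (14.2%), VS acute (12.6%) and VS chronic (16.3%), and 0 in CTX chronic (18.1%). DESeq2, the tool of the study, called 3 members each in CTX acute (3.69% of all genes) and DS acute (6.4%), the same genes as edgeR, 3 in vHPC acute (2.9%), 2 in dHPC acute (1.07%), 2 in DS chronic (0.776%), 1 each in dHPC chronic (0.859%), vHPC chronic (1.08%), VS acute (0.889%) and VS chronic (1.79%), and none in CTX chronic (0.608%). The median log2 difference of the 10 genes ran from -0.30 in vHPC chronic, where 7 of the 10 values were below 0, to 0.18 in vHPC acute, where 7 were above 0.

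**Figure D2:**
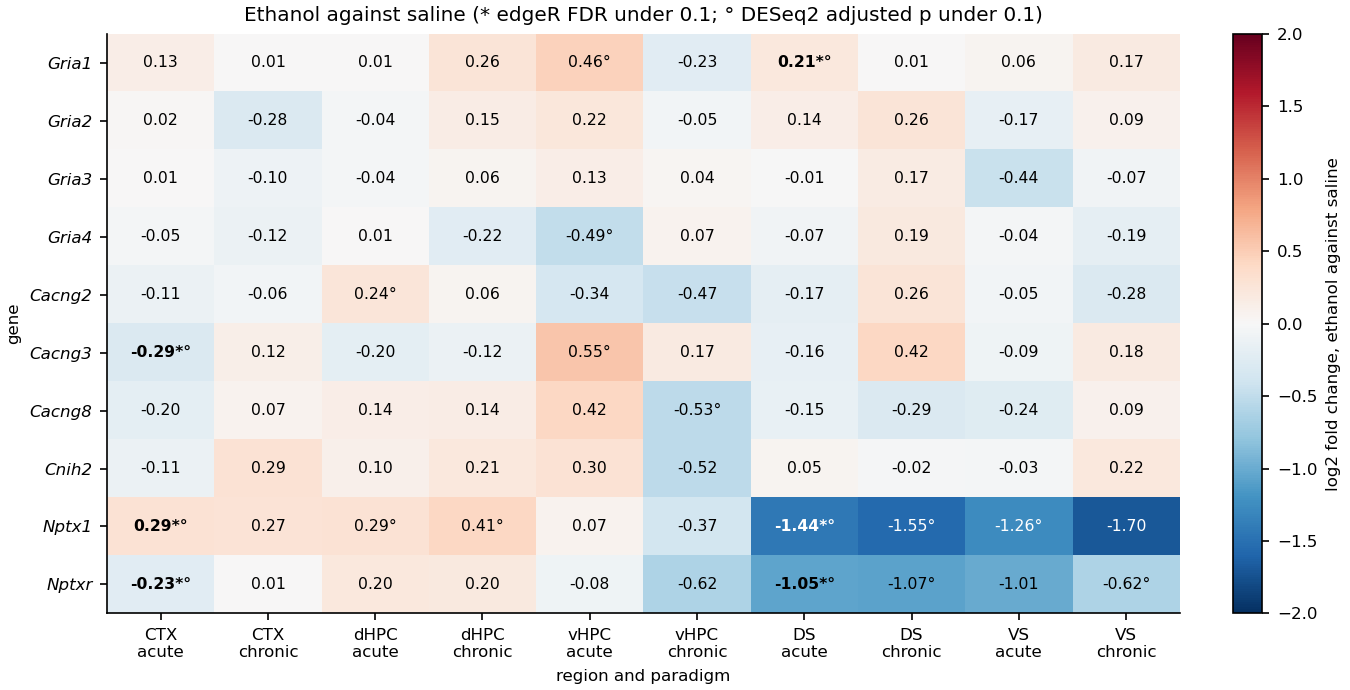
Log2 difference between ethanol and saline libraries for the 10 genes (rows) in 5 regions after acute and chronic exposure (columns), coloured from lower to higher in ethanol. An asterisk marks an edgeR adjusted p under 0.1 and a ring a DESeq2 adjusted p under 0.1. Nptx1 and Nptxr in DS and VS range from -0.62 to -1.70, and 6 cells carry an asterisk, 3 in CTX acute and 3 in DS acute.

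Both pentraxin genes fell in DS after acute ethanol. Nptx1 measured 149, 147 and 150 CPM in the saline libraries and 47.6, 75.9 and 46.8 in the ethanol libraries, a log2 difference of -1.44 ± 0.14 (edgeR adjusted p = 0.000149). Nptxr measured 222.5, 196 and 242 CPM against 100.3, 122 and 106, a difference of -1.05 ± 0.09 (adjusted p = 9.97e-05). No ethanol library reached the lowest saline library for either gene. The values stayed between -1.30 and -1.70 for Nptx1 and between -0.98 and -1.14 for Nptxr when any 1 library was left out, and all remained called.

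After chronic exposure the DS values were of the same size but did not pass the edgeR test. Nptx1 measured 184 and 126 CPM in the saline libraries that entered the test, 101 in the saline library left out, and 43.8, 70.5, 65.0 and 35.3 in the ethanol libraries (-1.55 ± 0.26, adjusted p = 0.216; DESeq2 3.14e-06). Nptxr measured 198 and 242 CPM, 282 in the library left out, and 96.8, 126, 111 and 89.5 (-1.07 ± 0.14, adjusted p = 0.170; DESeq2 6.56e-07). Every ethanol library again lay below every saline library. When all 4 DS groups shared 1 estimate of the spread, edgeR called both genes, with adjusted p of 0.0163 for Nptx1 and 0.00524 for Nptxr. In that fit 117 of 21049 genes were called. Without chronic ethanol replicate 4 the adjusted p of Nptxr was 0.0895.

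In VS the 2 genes were again lower on average in ethanol libraries. Nptx1 after acute exposure measured 94.7, 113.4 and 178 CPM in saline and 55.3, 41.6 and 65.3 in ethanol libraries (-1.26 ± 0.23, adjusted p = 0.168; DESeq2 1.09e-05), with no overlap. Nptxr measured 153, 319 and 363 CPM against 112, 146 and 161 (-1.01 ± 0.27, adjusted p = 0.420; DESeq2 0.417), and acute saline replicate 2 lay within the range of the ethanol libraries. Without that library edgeR called both genes, Nptx1 at -1.44 ± 0.22 (adjusted p = 0.0486) and Nptxr at -1.30 ± 0.16 (adjusted p = 0.0202), where 0.401% of genes were called. Without acute ethanol replicate 2 the calls were Nptx1 at -1.28 ± 0.26 (adjusted p = 0.0734) and Gria3 at -0.55 ± 0.12 (adjusted p = 0.0811), where 1.48% of genes were called.

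After chronic exposure in VS, Nptx1 measured 190, 46.2 and 153.5 CPM in saline and 44.4, 47.4 and 29.0 in ethanol libraries (-1.70 ± 0.43, adjusted p = 0.305; DESeq2 0.146). Nptxr measured 246, 156.5 and 160 CPM against 128.5, 135 and 104 (-0.62 ± 0.18, adjusted p = 0.337; DESeq2 0.0417). Chronic saline replicate 5 lay at the ethanol level for Nptx1. Without it edgeR called both genes, Nptx1 at -2.10 ± 0.18 (adjusted p = 0.00138) and Nptxr at -0.74 ± 0.17 (adjusted p = 0.0675), where 3.08% of genes were called.

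As a list, markers of pallial excitatory neurons, whose cell bodies lie outside the striatum, moved with the pentraxin genes. Their index, the median of 8 genes (Slc17a7, Slc30a3, Tbr1, Neurod2, Neurod6, Emx1, Fezf2 and Cux2) as a percent of the saline CTX mean, was 21.1 to 26.4% in DS acute saline and 1.21 to 5.74% in DS acute ethanol libraries. In DS chronic it was 33.2 and 17.9% in saline and 1.48 to 9.0018% in ethanol libraries. All 8 markers fell in DS after acute ethanol (median log2 difference -3.15), and all 8 were lower in DS chronic (-2.51) with 0 passing the edgeR test. In VS the index was 15.9 to 30.2% in acute saline and 0.867 to 6.58% in acute ethanol libraries, and 37.8, 4.61 and 17.7% in chronic saline against 0.745 to 3.97% in chronic ethanol libraries. The low value of 4.61% belongs to chronic saline replicate 5, the library in which Nptx1 also stood at the ethanol level. In VS acute all 8 markers were lower (median log2 difference -3.02), with 1 called. The marker Cux2 hardly moved in VS, at 28.9 CPM in acute saline and 28.8 in acute ethanol libraries. After chronic exposure Cux2 averaged 23.3 CPM in saline and 24.8 in ethanol VS libraries. The summed level of the 8 markers ran from 410.2 to 505 CPM in DS acute saline and from 29.8 to 114 in DS acute ethanol libraries, from 333 to 824 in VS acute saline and from 47.9 to 144 in VS acute ethanol libraries, and no striatal library had more than 1 of the 8 at 0 counts. In the chronic groups the sums were 429.9 to 614 and 31.9 to 169 CPM in DS and 81.9 to 716 and 36.8 to 95.6 CPM in VS, for saline and ethanol libraries.

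Set against the cortex, the drop in these markers can be read beside the drop in each gene. Between saline and ethanol the index differed by -20.01 points of the cortical level in DS acute, -21.3 in DS chronic, -19.8 in VS acute and -18.2 in VS chronic. The size of this drop depends on the use of the median. With the mean of the list the values went from 27.4 to 4.38% in DS acute and from 38.5 to 5.85% in DS chronic. In VS they went from 23.15 to 4.97% (acute) and from 19.6 to 3.90% (chronic). The Nptx1 difference amounted to -25.4, -28.1, -20.7 and -24.9% of its own saline CTX level in the same order, and the Nptxr difference to -11.5, -11.9, -14.4 and -6.74%. Saline striatal levels were 35.7 to 43.0% of the CTX level for Nptx1 and 19.4 to 28.9% for Nptxr, next to 161 to 181% for Gria1. The part of pallial tissue in the striatal pentraxin values was not tested.

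**Figure D3:**
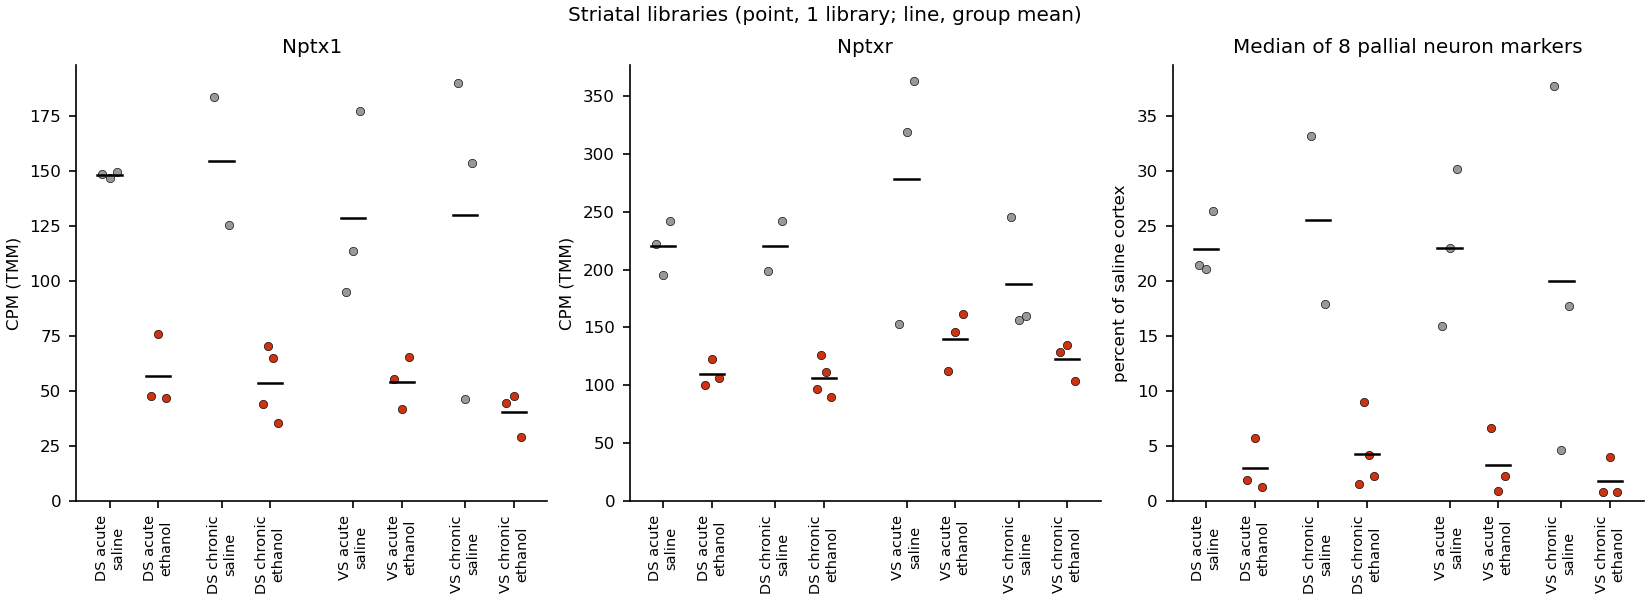
Nptx1 and Nptxr in CPM, and the pallial marker index in percent of saline CTX, for each DS and VS library by group. Points are libraries and lines are group means, with DS chronic saline replicate 2 left out. In DS the ethanol libraries lie below all saline libraries in the 3 measures, and in VS chronic saline 1 library with an index of 4.61% lies at the ethanol level for Nptx1.

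None of the receptor subunit and auxiliary genes fell in the striatum by the edgeR test. Gria1, which is abundant in the striatum itself, rose in DS after acute ethanol, from 472, 430 and 444 CPM to 517, 535 and 546 (0.21 ± 0.06, adjusted p = 0.0909). All ethanol libraries lay above all saline ones. This call was lost without acute saline replicate 4 or 6 or acute ethanol replicate 3, 4 or 5, with adjusted p from 0.143 to 0.271, and it was 0.376 when the 4 DS groups were fitted together. In that comparison 12 of 12 striatal projection neuron markers were higher, 9 of them called, with a median of 0.30, and the part of tissue composition in the Gria1 value was not tested. In DS chronic Gria1 differed by 0.01 ± 0.11 and in VS by 0.06 ± 0.10 (acute) and 0.17 ± 0.08 (chronic), none called.

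Of the remaining 7 genes none passed the edgeR test in a striatal comparison. The farthest from 0 was Gria3 in VS acute, at 196.5, 218 and 245 CPM in saline and 187, 160 and 143 in ethanol libraries (-0.44 ± 0.12, adjusted p = 0.430; DESeq2 0.144), with no overlap between the groups. Gria2 differed by 0.14 ± 0.06 in DS acute and 0.26 ± 0.11 in DS chronic, and by -0.17 ± 0.13 and 0.09 ± 0.09 in VS. Cacng3, at 67.3% of its saline CTX level in VS acute saline libraries, differed by -0.09 ± 0.15 there, by -0.16 ± 0.10 in DS acute, by 0.42 ± 0.24 in DS chronic (adjusted p = 0.729) and by 0.18 ± 0.12 in VS chronic (adjusted p = 0.668). Cacng8 and Cnih2 differed by between -0.29 and 0.22 in the 4 striatal comparisons.

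In CTX, acute ethanol was followed by opposite differences in the 2 pentraxin genes. Nptx1 rose from 388, 371 and 356 CPM to 468, 471 and 416 (0.29 ± 0.06, edgeR adjusted p = 0.0356). Nptxr fell from 950.5, 1051 and 944 CPM to 848, 790.0 and 867 (-0.23 ± 0.05, adjusted p = 0.0612). Cacng3, which encodes TARP γ-3, fell from 125, 134.5 and 124.5 CPM to 107, 98.0 and 109 (-0.29 ± 0.06, adjusted p = 0.0370). Groups did not overlap for these 3 genes, nor for Cacng8 (-0.20 ± 0.06, adjusted p = 0.183) and Cnih2 (-0.11 ± 0.05, adjusted p = 0.415), which did not pass. The 4 subunit genes lay between -0.05 and 0.13 and none was called.

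The CTX calls were lost in several settings. Without acute saline replicate 4 or acute ethanol replicate 4 none of the 3 was called, with adjusted p from 0.136 to 0.272, and with the 4 CTX groups in 1 fit adjusted p was 0.588 for Nptx1, 0.729 for Cacng3 and 0.816 for Nptxr at the same log2 differences. Nptx1 was also lost without acute saline replicate 6 (adjusted p = 0.105), and Nptxr without acute saline replicate 2 (0.103) or acute ethanol replicate 5 (0.114). Oligodendrocyte markers were higher in the same comparison, 8 of 8 with 6 called and a median of 0.38, and their index ran from 96.1 to 108% of the saline CTX mean in saline and from 111 to 148% in ethanol libraries, with a summed level of 2061 to 2319 and 2416 to 3218 CPM. Striatal projection neuron markers were lower in 11 of 12, with 3 called and a median of -0.36, and choroid plexus markers in 7 of 7, with 0 called and a median of -1.02. Of the pallial neuron markers 3 of 8 were higher, with 1 called in each direction and a median of -0.04. The part of these tissues in the CTX values was not tested.

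After chronic exposure in CTX, Nptx1 measured 312, 417 and 317 CPM in saline and 383, 455 and 429 in ethanol libraries (0.27 ± 0.12, adjusted p = 0.480). The value was close in size to that after acute exposure, with overlapping groups. Nptxr (0.01 ± 0.21) and Cacng3 (0.12 ± 0.18) were near 0, with a wide spread that came in part from chronic ethanol replicate 6, at 1297 and 164 CPM. The same library held the lowest Gria2 value of the region, 358 CPM beside 567 and 546 in the other 2 chronic ethanol libraries, and the Gria2 difference of -0.28 ± 0.16 was -0.10 ± 0.08 without it.

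In dHPC Nptx1 was again higher after ethanol in each paradigm. After acute exposure it measured 484.5, 560 and 548 CPM in saline and 629, 678, 635 and 646 in ethanol libraries (0.29 ± 0.06, adjusted p = 0.204; DESeq2 0.0053). After chronic exposure it measured 639, 453 and 493 CPM against 690, 660 and 771 (0.41 ± 0.13, adjusted p = 0.566; DESeq2 0.0777). Every ethanol library lay above every saline library in both paradigms, and DESeq2 called both differences while edgeR called neither. Nptxr differed by 0.20 ± 0.11 and 0.20 ± 0.13, with overlapping groups.

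Among the other genes in dHPC, Cacng2 measured 59.2, 60.7 and 66.2 CPM in acute saline and 75.1, 73.6, 76.3 and 67.0 in acute ethanol libraries (0.24 ± 0.06, adjusted p = 0.362; DESeq2 0.0949), without overlap. Gria4 in chronic dHPC was the other gene whose groups did not overlap (-0.22 ± 0.07, adjusted p = 0.566). Markers of other cell types differed as well in dHPC: all 12 striatal projection neuron markers were lower in ethanol libraries after acute (median -0.96) and chronic exposure (median -2.52). In the chronic groups their index was 2.86, 10.8 and 47.8% of the saline DS mean in saline and 2.09 to 4.15% in ethanol libraries. These groups overlapped, and 1 saline library stood far above the rest. All 6 dentate granule markers were higher after chronic exposure (median 0.63). The 6 thalamic markers were all higher in both paradigms (medians 0.60 and 0.32), oligodendrocyte markers were lower in 7 of 8 after acute exposure (median -0.16) and in 8 of 8 after chronic exposure (median -0.33), and the 7 choroid plexus markers were all lower after chronic exposure (median -1.38). Pallial neuron markers were higher in 6 of 8 in both paradigms (medians 0.12 and 0.20). Their index ran from 58.6 to 65.6% of the saline CTX mean in acute saline and from 55.5 to 79.9% in acute ethanol libraries. In the chronic groups the pallial index ran from 47.9 to 70.2% in saline and from 77.8 to 85.6% in ethanol libraries. None of the markers in these lists passed the edgeR test. Their part in the Nptx1 values was not tested.

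**Figure D4:**
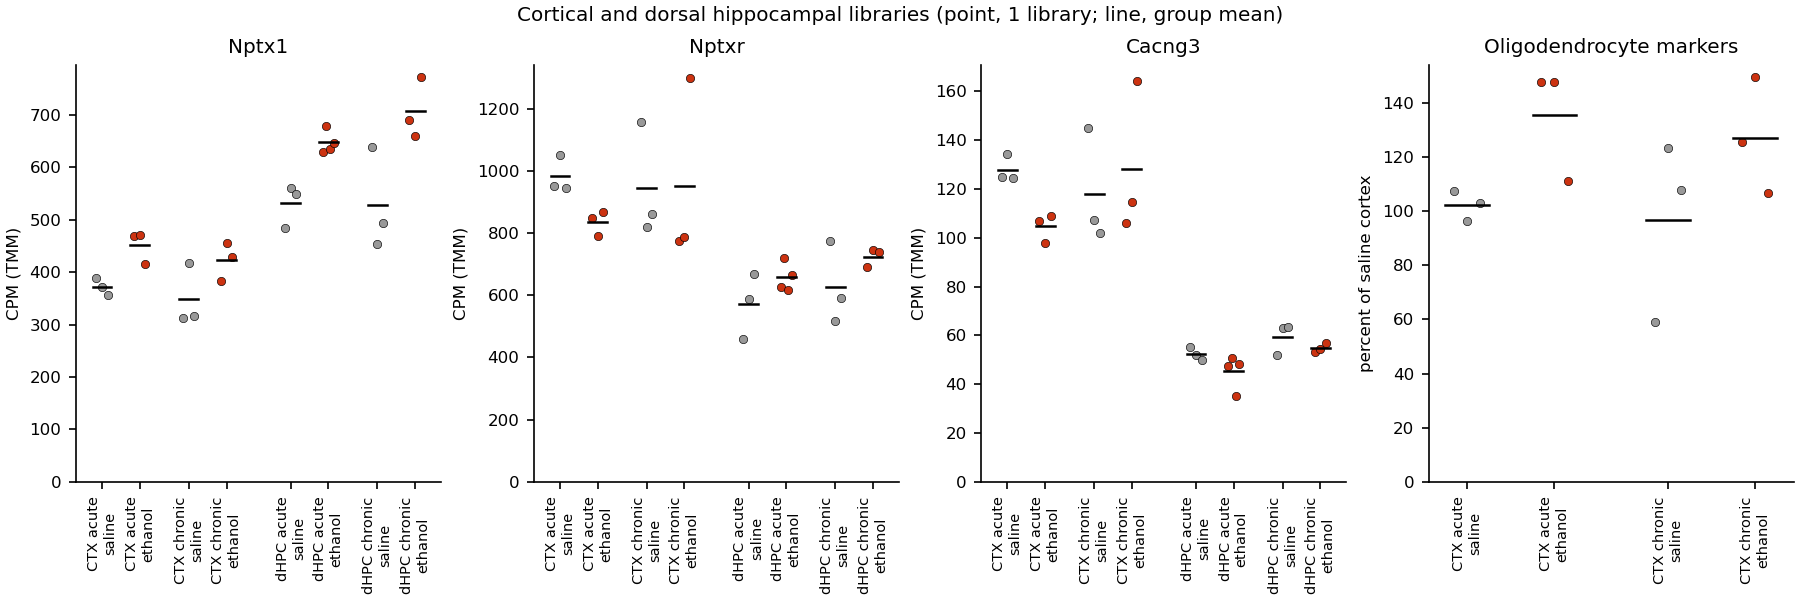
Nptx1, Nptxr and Cacng3 in CPM for each CTX and dHPC library, and the oligodendrocyte marker index in percent of saline CTX for the CTX libraries, by group. Points are libraries and lines are group means. Nptx1 is higher in ethanol libraries without overlap in CTX acute, dHPC acute and dHPC chronic, and the index is higher in the acute ethanol than in the acute saline CTX libraries.

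In vHPC none of the 10 genes passed the edgeR test after acute or chronic exposure. After acute exposure Cacng3 measured 35.4, 35.3 and 29.9 CPM in saline and 55.8, 42.5 and 50.8 in ethanol libraries (0.55 ± 0.13, adjusted p = 0.212; DESeq2 0.0203), without overlap. Gria1 measured 763, 847 and 989 CPM against 1221, 950 and 1449 (0.46 ± 0.15, adjusted p = 0.318; DESeq2 0.0822). Gria4 measured 74.8, 63.1 and 60.4 CPM against 50.6, 54.2 and 38.1 (-0.49 ± 0.15, adjusted p = 0.295; DESeq2 0.0801). The groups did not overlap for Gria4, nor for Cacng2 (-0.34 ± 0.10, adjusted p = 0.282; DESeq2 0.102), and they did for Gria1, Cacng8 (0.42 ± 0.17) and Cnih2 (0.30 ± 0.18).

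After chronic exposure in vHPC, both auxiliary genes of hippocampal receptors were lower on average in the ethanol libraries. Cacng8 measured 199, 174 and 207 CPM in saline and 152.5, 110 and 142 in ethanol libraries (-0.53 ± 0.13, adjusted p = 0.281; DESeq2 0.0272). Cnih2 measured 356, 330 and 369 CPM against 296, 170 and 275 (-0.52 ± 0.17, adjusted p = 0.420). Neither group pair overlapped, nor did those of Cacng2 (-0.47 ± 0.13, adjusted p = 0.358) and Nptx1 (-0.37 ± 0.13, adjusted p = 0.424). Nptxr differed by -0.62 ± 0.21 (adjusted p = 0.420), with 1301, 1291 and 1890 CPM in saline and 1303, 731 and 909 in ethanol libraries. Without chronic ethanol replicate 4 edgeR called Cacng2 at -0.59 ± 0.12 (adjusted p = 0.0734), Cacng8 at -0.61 ± 0.13 (adjusted p = 0.0797) and Nptxr at -0.86 ± 0.18 (adjusted p = 0.0734), where 1.87% of genes were called.

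Markers of neighbouring tissues differed between the vHPC groups as well. In the acute groups all 6 thalamic neuron markers were lower in ethanol libraries (median -1.79) and all 6 dentate granule markers higher (median 1.26), with 0 called in each list. The thalamic index ran from 65.5 to 261% of the saline vHPC mean in acute saline and from 14.5 to 70.3% in acute ethanol libraries. In the chronic groups all 7 choroid plexus markers were higher, 5 of them called, with a median of 4.20, and the choroid plexus index was 2.30 to 31.7% in saline and 168 to 544% in ethanol libraries. Oligodendrocyte markers (8 of 8, median 0.73) and striatal projection neuron markers (12 of 12, median 1.63) were also higher in the chronic ethanol libraries. The part of these tissues in the vHPC values was not tested.

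**Figure D5:**
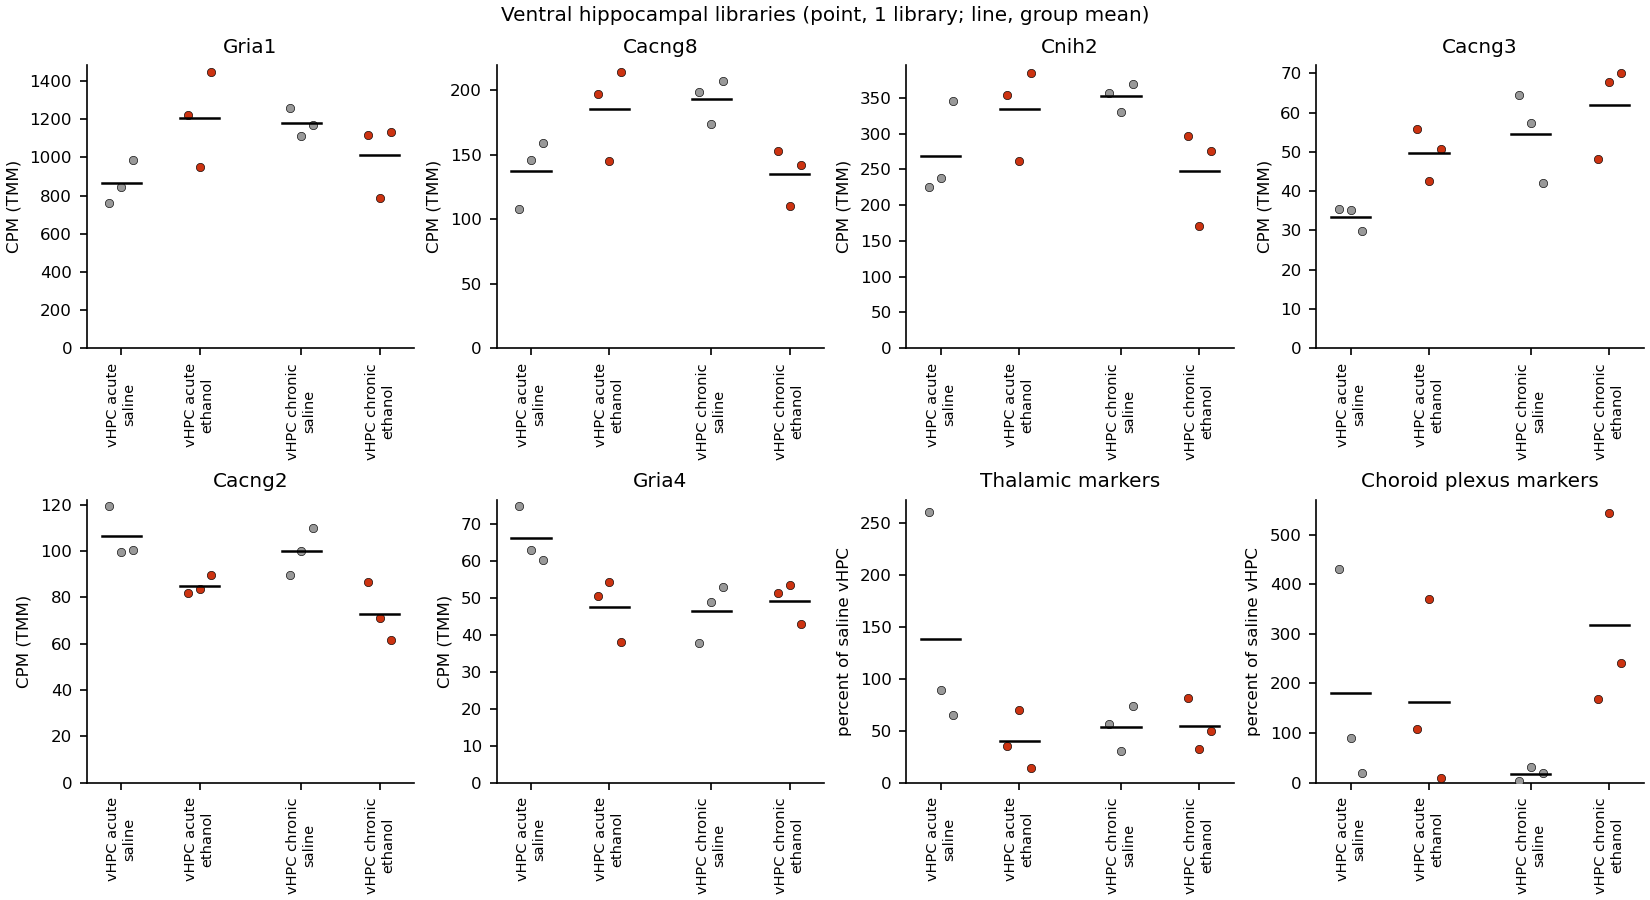
Gria1, Cacng8, Cnih2, Cacng3, Cacng2 and Gria4 in CPM for each vHPC library by group, with the thalamic and choroid plexus marker indices in percent of saline vHPC. Points are libraries and lines are group means. Cacng8 and Cnih2 are lower without overlap in chronic ethanol than in chronic saline libraries, and the choroid plexus index is higher in the same ethanol libraries.

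To test whether the response differed between 1 and 10 injections, the interaction of paradigm and treatment was fitted in each region over its 4 groups. None of the 10 genes passed with edgeR in any of the 5 regions, and neither did any other gene (0% in each). At an unadjusted p under 0.05 there were 5 members in vHPC (11.5% of all genes), 1 each in CTX (8.19%) and DS (4.16%), and 0 in dHPC (4.48%) and VS (4.62%). In vHPC the chronic minus acute difference was -0.95 ± 0.23 for Cacng8 (adjusted p = 0.289; DESeq2 0.0195), -0.82 ± 0.28 for Cnih2 (adjusted p = 0.332; DESeq2 0.0980) and -0.70 ± 0.22 for Gria1 (adjusted p = 0.312; DESeq2 0.0842), and DESeq2 called these 3 members and 2.02% of all genes. In the other regions DESeq2 called 0 members, with 0.0791% of genes called in CTX, 0.00745% in dHPC, 0.019% in DS and 0.0191% in VS. Without acute saline replicate 6, edgeR called Cacng8 (adjusted p = 0.0912) and Cnih2 (adjusted p = 0.0938), where 2.12% of genes were called. The vHPC saline groups differed as well, and the interaction includes that difference. Tissue markers also differed between these saline groups. The dentate granule index was 26.4 to 65.0% of the saline dHPC mean in acute and 76.9 to 127% in chronic saline libraries. The choroid plexus index was 19.2 to 431% and 2.30 to 31.7% of the saline vHPC mean, with overlap. Acute and chronic saline means were 137 and 193 CPM for Cacng8, 269 and 352 for Cnih2, and 866 and 1179 for Gria1. Acute and chronic ethanol means were 185 and 135, 334 and 247, and 1207 and 1014 CPM in the same order. The part of the saline difference and of tissue composition in these values was not tested. For the pentraxin genes in DS the interaction was -0.11 ± 0.34 for Nptx1 and -0.02 ± 0.19 for Nptxr, so the acute and chronic values differed by less than their error.

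Other genes of the AMPA receptor were called in the same 2 ethanol comparisons as the 10 members. Of 22 further auxiliary and synaptic-organizer genes, 1 fell in CTX acute, the activity-regulated pentraxin Nptx2 (-0.39 ± 0.09, adjusted p = 0.0564). Of 11 genes of trafficking, anchoring and editing, 1 fell there, Arc (-0.77 ± 0.20, adjusted p = 0.0924), which promotes receptor endocytosis, beside 1.99% of all genes. In DS acute 4 of the 22 fell and 2 rose, beside 5.15% of all genes called, and 0 of the 11 were called. Those that fell included the secreted olfactomedins Olfm1 (-1.36, adjusted p = 0.000122) and Olfm2 (-0.92, adjusted p = 0.00049), the cornichon Cnih3 (-1.62, adjusted p = 0.00049) and the TARP Cacng7 (-0.25, adjusted p = 0.0645). The TARP Cacng4 rose (0.24, adjusted p = 0.0631). All 8 pallial neuron markers fell in the same comparison, and the part of pallial tissue in these values was not tested. In the other 8 ethanol comparisons and the 5 interactions 0 genes of the 2 receptor lists passed the edgeR test.

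The same lists were counted between regions of saline mice. In CTX against dHPC, 10 of the 22 were higher and 7 lower, with Shisa6 (-3.14), Olfm2 (2.25) and Cacng5 (-1.78) among those with the smallest adjusted p, and 7 of the 11 were higher and 1 lower, where 44.5% of all genes were called. In vHPC against DS, 10 of the 22 were higher and 7 lower, with Shisa6 (3.49) and Olfm1 (2.12) higher and Gsg1l (-2.43) and Cacng4 (-1.97) lower, and 2 of the 11 were higher and 3 lower (34.5% of all genes). In vHPC against VS the counts were 8 and 10, with Shisa6 (3.49) and Frrs1l (0.98) higher and Gsg1l (-2.32) and Shisa9 (-1.04) lower, and those of the 11 were 3 and 5 (33.9%). Shisa6 and Gsg1l encode auxiliary subunits, and Frrs1l acts in receptor assembly. In DS against VS 1 of the 22 was higher, Frrs1l (0.44), and 5 were lower, among them Cnih3 (-0.91) and Olfm3 (-0.67), and 1 of the 11 was higher and 2 lower (9.59%).

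At the level of annotated isoforms the 10 genes had 38 transcripts in the deposited isoform table. Reads that fit several isoforms were counted for each, so isoforms of a gene share reads, and the flip and flop forms of the subunits could not be separated. The calls in CTX acute were Nptx1-201 (0.28), Nptxr-201 (-0.23) and the 3 Cacng3 isoforms (-0.28 to -0.29), where 1.24% of isoforms were called. In DS acute they were Nptx1-201 (-1.45), Nptxr-201 (-1.07), Nptxr-202 (-1.03) and Gria1-205 (0.32, adjusted p = 0.0707), where 3.59% were called. In VS acute Nptx1-201 was called (-1.28, adjusted p = 0.0635), where 0.233% were, which its gene was not. Nptx1-201 is the only isoform listed for Nptx1 and covers the same 5217 bases, so it is not a measure separate from the gene. In the other 7 comparisons edgeR called 0 of these isoforms, with 0.0015% of isoforms called in dHPC acute, 0.0402% in vHPC chronic, 0.00827% in VS chronic and 0% in the rest. DESeq2 called 12 in vHPC acute (1.65% of isoforms), 4 of Gria1, 3 each of Gria4 and Cacng3, and Cacng2-201 and Cacng8-203. It called 7 in CTX acute (2.24%), 4 in DS acute (3.64%), 3 in DS chronic (0.467%), 3 in VS acute (0.708%), 2 in vHPC chronic (0.723%), 1 in dHPC acute (0.704%), 1 in dHPC chronic (0.506%), 1 in VS chronic (1.02%) and 0 in CTX chronic (0.301%).

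Across the 20 groups the mean log2 level of Gria1 went with that of Cnih2 (Pearson r = 0.99) and Cacng8 (0.86) and opposite to Gria4 (-0.96) and Cacng3 (-0.88). These values describe groups that share mice and library preparations. Of 18008 other genes, the one most like each member over the same groups was Ncdn for Gria1 (r = 0.98), Jmjd1c for Gria2 (0.93), Gm42669 for Gria3 (0.94) and Efna5 for Gria4 (0.96). It was Kcna2 for Cacng2 (0.95), Dock3 for Cacng3 (0.96), Nrp1 for Cacng8 (0.98), St6galnac5 for Cnih2 (0.98), Ppm1e for Nptx1 (0.99) and Ywhah for Nptxr (0.99).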

How the data were processed

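RNA of 62 samples was sequenced, and the authors deposited raw read counts per gene and per isoform. Per the submitters' notes and the study's methods, reads were trimmed with Cutadapt 5.0, aligned to GRCm39 with STAR 2.7.10a and counted with featureCounts 2.0.6. The methods credit the annotation to NCBI RefSeq, while the tables carry Ensembl gene and transcript identifiers. Counting used a reverse-strand setting for all libraries and gave multi-mapping and overlapping reads to every feature. CTX and dHPC libraries came from a non-directional kit, so part of their reads were not counted and reads of a gene and its antisense partner cannot be told apart there. Antisense genes in the count table share 536 exon bases with Cacng2, 283 with Cacng8 and 19 with Cnih2.

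Groups came from the labels. Counts were tested with edgeR 4.0.16 (quasi-likelihood F test, TMM scaling, two-sided) after dropping genes that no group held at 5 or more counts in 2 or more libraries. The saline and ethanol libraries of 1 region and paradigm entered each ethanol comparison. The mouse was a block in region comparisons because some animals gave both regions. A mouse with a single region adds nothing to the difference under this block, so fewer mice than libraries per region bear on it. P-values were adjusted by Benjamini-Hochberg over all features, with a threshold of 0.1, and SE is the log2 difference divided by the square root of F. DESeq2 1.42.0 was an alternative. The tests were checked on simulated counts. The 10 genes and all gene lists were chosen with earlier results of these data known, so counts over lists are descriptions. All 10 genes are named, with the called genes of 2 receptor lists (up to 5 per comparison by adjusted p) and the most similar gene of each member. DS chronic saline replicate 2 had no counts on 6 chromosomes and none past base 22875501 of chromosome 6, and it was used for levels of genes on other chromosomes only. Saline and ethanol mice with the same number are different animals, so these numbers were not treated as pairs. The correlation of their deviations in dHPC acute was 0.027, -0.052 and -0.016. In the other comparisons it ran from -0.396 (CTX chronic, number 6) to 0.429 (dHPC chronic, number 6). One marker of the pallial list as first fixed is not reported here, and the list was computed without it.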

Additional observations from a re-analysis of the deposited data

Results flagged for a closer look

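In the 20 groups of 4 libraries among the 10 genes, 2 libraries stood apart from the other 3 by Dixon's test, where chance flags about 1 in 20 groups. Gria4 in dHPC acute ethanol replicate 4 was at 58.9 CPM with the others at 42.4 to 44.0. Cacng8 in DS chronic ethanol replicate 5 was at 49.5 CPM with the others at 40.3 to 41.8.

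Several genes had all ethanol libraries above all saline libraries in one region and all below in another, and these differences between regions were not tested. Nptx1 was higher after acute ethanol in CTX (log2 difference 0.29) and dHPC (0.29) and lower in DS (-1.44) and VS (-1.26). After chronic ethanol Nptx1 was higher in dHPC (0.41) and lower in vHPC (-0.37) and DS (-1.55). Cacng2 after acute ethanol was higher in dHPC (0.24) and lower in vHPC (-0.34) and DS (-0.17). Cacng3 after acute ethanol was lower in CTX (-0.29) and higher in vHPC (0.55).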

How the results depend on the processing

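Calls among the 10 genes after ethanol depended on the tool, the libraries and the groups fitted together, and the cause was not tested. The counts that follow are of members called. With the 4 groups of a region in 1 fit, 0 were called in CTX acute (3 otherwise), beside 0 of 26540 genes. In DS chronic that fit called 2 (0 otherwise), beside 117 of 21049 genes. With DESeq2, where edgeR called 0, there were 2 in dHPC acute, 1 in dHPC chronic, 3 in vHPC acute, 1 in vHPC chronic, 2 in DS chronic, 1 in VS acute, 1 in VS chronic and 3 in the vHPC interaction. Among isoforms DESeq2 called 1 in dHPC acute, 1 in dHPC chronic, 12 in vHPC acute, 2 in vHPC chronic, 3 in DS chronic, 3 in VS acute (1 with edgeR) and 1 in VS chronic. Without the filter on low counts there were 4 in CTX acute (of 1488 genes called), 1 in dHPC acute (253), 1 in vHPC acute (263), 5 in vHPC chronic (790), 2 in DS chronic (475), 3 in VS acute (536), 2 in VS chronic (569), 4 in the vHPC interaction (868), 1 in the DS interaction (235) and 2 in DS against VS (2849), with 29649 to 37834 genes tested. In DS against VS, ethanol libraries gave 6, beside 6662 of 22172 genes. Leaving out 1 library at a time gave 0 to 3 in CTX acute, 0 to 3 in vHPC chronic, 0 to 1 in DS chronic, 0 to 2 in VS acute, 0 to 2 in VS chronic, 0 to 2 in the vHPC interaction and 0 to 1 in DS against VS, the last being Cacng2 without chronic saline mouse 3.

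Over all genes, CTX acute had 515 calls (0 in 1 fit of 4 groups, 1488 without the filter, 42 to 794 leaving out 1 library) and DS acute 1056 (283 to 1798, and 581 to 1088). Leaving out 1 library gave 0 to 360 calls in vHPC chronic, 0 to 290 in VS acute, 0 to 615 in VS chronic and 0 to 434 in the vHPC interaction. Leaving out 1 mouse gave 713 to 2046 in DS against VS. With ethanol libraries the Gria3 difference reversed in vHPC against VS (0.36 from -0.14) and in DS against VS (0.33 from -0.12). The mean of the pallial list in place of its median moved the index to 27.4% in DS acute saline (from 22.95%), to 38.5% in DS chronic saline (from 25.6%) and to 3.90% in VS chronic ethanol (from 1.82%). The replicate number was also fitted as a block, although saline and ethanol mice with the same number are different animals. A number found in only 1 of the groups adds nothing to the difference there, and 2 numbers were shared in CTX acute. With this block CTX acute had 789 genes called and the same count of 3 members, CTX chronic 143 genes and 0 members, and dHPC acute 15 genes and 0 members. With no mouse block, 10 members were called in CTX against dHPC (15044 of 27916 genes) and 8 in vHPC against DS (8534 of 21224). The same setting called 8 in vHPC against VS (8173 of 21583) and 0 in DS against VS (1498 of 21286). Of results for single genes and isoforms, 1718 kept their side of the threshold under the other settings, counting those called in neither setting. Another 75 became called, 5 lost the call and 2 reversed.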

Other observations

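The share of Gria1 in the summed per-kilobase level of the 4 subunit genes was computed for each group after the report's comparisons were known, and it was not tested. The length is that of all annotated exon bases, and other lengths move these shares. In VS acute it ran from 49.9 to 51.8% in saline and from 54.3 to 57.3% in ethanol libraries. In vHPC acute it ran from 64.9 to 67.4% and from 69.1 to 73.2%, and in dHPC chronic from 65.3 to 69.6% and from 69.8 to 71.9%. In DS chronic the order was the other way round, with 52.6 and 53.1% in the saline libraries that hold all 4 genes and 47.0 to 51.2% in ethanol libraries. In vHPC chronic it was also lower on average in ethanol libraries, at 69.7 to 72.3% and 64.0 to 70.1%, with overlap. In CTX acute the ranges overlapped, at 36.1 to 37.8% and 37.6 to 40.7%. They also overlapped in CTX chronic (34.8 to 38.3% and 38.1 to 44.5%) and dHPC acute (67.7 to 68.9% and 66.4 to 70.1%). So did those of DS acute (47.2 to 50.6% and 49.1 to 52.0%) and VS chronic (49.1 to 56.2% and 55.3 to 57.1%).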
